A study of Mus musculus with 21 samples.

Results

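Collagen genes were examined in bulk RNA sequencing of tail keratinocytes, the main cells of the epidermis, from mice with basal cell carcinoma (BCC) and from tumour-free controls (Con). A gene was taken as a collagen where its row in the count table is protein coding and its name reads Col, a number, the letter a and a number. This rule used no measured value and gave 39 of 23713 genes. From textbook knowledge of skin, 11 of them were listed as stromal (made mainly by fibroblasts and other mesenchymal cells), 5 as epithelial (made by keratinocytes at the basement membrane zone), and 23 were assigned to neither list. Col4a1 and Col4a2 were left off the epithelial list because both keratinocytes and vessels make them. The list names are textbook ones, and which cells made the RNA in these libraries was not tested. BCC was studied in 3 mouse models with 3 Con and 4 BCC libraries each, 21 libraries in all. SmoM2 is the name of an activated form of Smoothened, the protein that turns Hedgehog signalling on, and these cells were taken at day 29 after tumour induction. Gnas-eKO is named after the loss of Gnas, which encodes the stimulatory G protein alpha subunit upstream of cAMP and protein kinase A, and was sampled at day 42. PKI shares its name with a peptide that blocks protein kinase A, and this model was sampled at day 57. The labels give neither the promoter or Cre line behind the alleles, nor the PKI construct, nor the strain, age or sex of the mice, nor what the Con mice carry beyond having no tumour. Each model was its own batch (A, B and C) with its own Con mice, so model, day and batch cannot be told apart between models. All comparisons of BCC with Con stayed inside a model. In the file headers each library carries its own name that looks like that of an animal, and in SmoM2 the BCC names begin with other letters than the Con names, so whatever these letters mark cannot be told apart from the tumour there. The epidermis was detached with trypsin and dispase and scraped off the dermis, and no cell sort is described. The labels do not say whether the libraries of a group came from separate mice, so p-values measure only the spread between these samples, which may be technical. In bulk RNA fewer cells of a type and less RNA per cell cannot be told apart.

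Collagens are secreted or membrane proteins whose 3 chains wind into a triple helix. Fibrillar collagens form the ropes of the dermis, type IV collagens form the sheet of the basement membrane, and fibril-associated collagens decorate fibrils and tune how they bundle. Under the epidermis, type XVII collagen spans the keratinocyte membrane in hemidesmosomes, type VII collagen forms the anchoring fibrils that tie the basement membrane to the dermis, and type XVIII collagen is a basement membrane proteoglycan. BCC grows from keratinocytes in which the Hedgehog pathway is active, as nests that stay in contact with a basement membrane and with the surrounding stroma.

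Library totals ranged from 16645858 to 22251132 counts, and 3 counts corresponded to between 0.133 and 0.189 CPM (counts relative to the TMM-scaled library size, in the usual CPM unit), a floor that covers counting error only. The labels were checked on the altered genes. Smo rose in SmoM2 from 103 ± 8.62 to 298 ± 12.3 CPM (SD over 3 and 4 libraries). Gnas stood at 174 ± 3 CPM in Gnas-eKO Con and at 80.3 ± 28.1 CPM in Gnas-eKO BCC, without overlap between the groups (edgeR adjusted p 0.0647). No transcript of the PKI construct can be read in these files, and Pkia, the endogenous inhibitor gene, did not pass in PKI (edgeR adjusted p 0.0956). Ptch1, a Hedgehog target, was called higher in BCC of all 3 models, by 4.70, 4.14 and 2.99 on the log2 scale. Gli1, another Hedgehog target, was called higher in SmoM2 and PKI (4.88 and 2.93, edgeR adjusted p 0.000462 and 7.10e-05) and not in Gnas-eKO (4.67, edgeR adjusted p 0.0715), where the lowest BCC library, at 9.64 CPM, lay inside the Con range of 4.75 to 9.96 CPM. Each of 7 keratinocyte markers reached 1 CPM in some library, and their sum was 25924 to 69461 CPM over the 21 libraries. The Gnas-eKO BCC libraries spread widely: of the 27 collagens with a positive change there, replicate 2 was the lowest BCC library for 15 and replicate 3 for 9.

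Genes were tested with edgeR's quasi-likelihood test within each model, and a gene was called when its Benjamini-Hochberg adjusted p over all genes tested was under 0.05. Of the 39 collagens, 33 passed the filter on low counts in SmoM2 and 32 in each of the other models. 6 collagens stayed under 1 CPM in every library, and Col6a4, Col11a1, Col13a1, Col24a1 and Col28a1 were tested in no model. In SmoM2, 16 collagens were called higher and 5 lower in BCC, where 29.7% of all genes tested were called. In Gnas-eKO, 6 were called higher and 1 lower, against a background of 1.63%. In PKI, 11 were called higher and 10 lower, against 34.5%. The median log2 fold change of the tested collagens was 0.40, 0.82 and 0.16 (SmoM2, Gnas-eKO, PKI), beside 0.00, 0.02 and -0.00 for all genes tested. All 4 BCC libraries lay above all 3 Con libraries for 16, 16 and 12 collagens in SmoM2, Gnas-eKO and PKI (19.6%, 9.99% and 22.4% of all genes tested) and below them for 5, 2 and 10 (19.2%, 9.69% and 20.8%). Over the 31 collagens tested in all 3 models, 6 were called higher in each of them (Col27a1, Col14a1, Col4a1, Col4a2, Col5a1 and Col25a1), where 0.902% of all genes were. Col16a1 was the 1 collagen called lower in each, where 0.0767% of all genes were. The count of 6 fell to 0 when Gnas-eKO Con replicate 1, 2 or 3 was left out, to 2 without Gnas-eKO BCC replicate 1 or 4, to 4 without Gnas-eKO BCC replicate 3 or PKI Con replicate 3, and was 8 without Gnas-eKO BCC replicate 2.

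**Figure D1:**
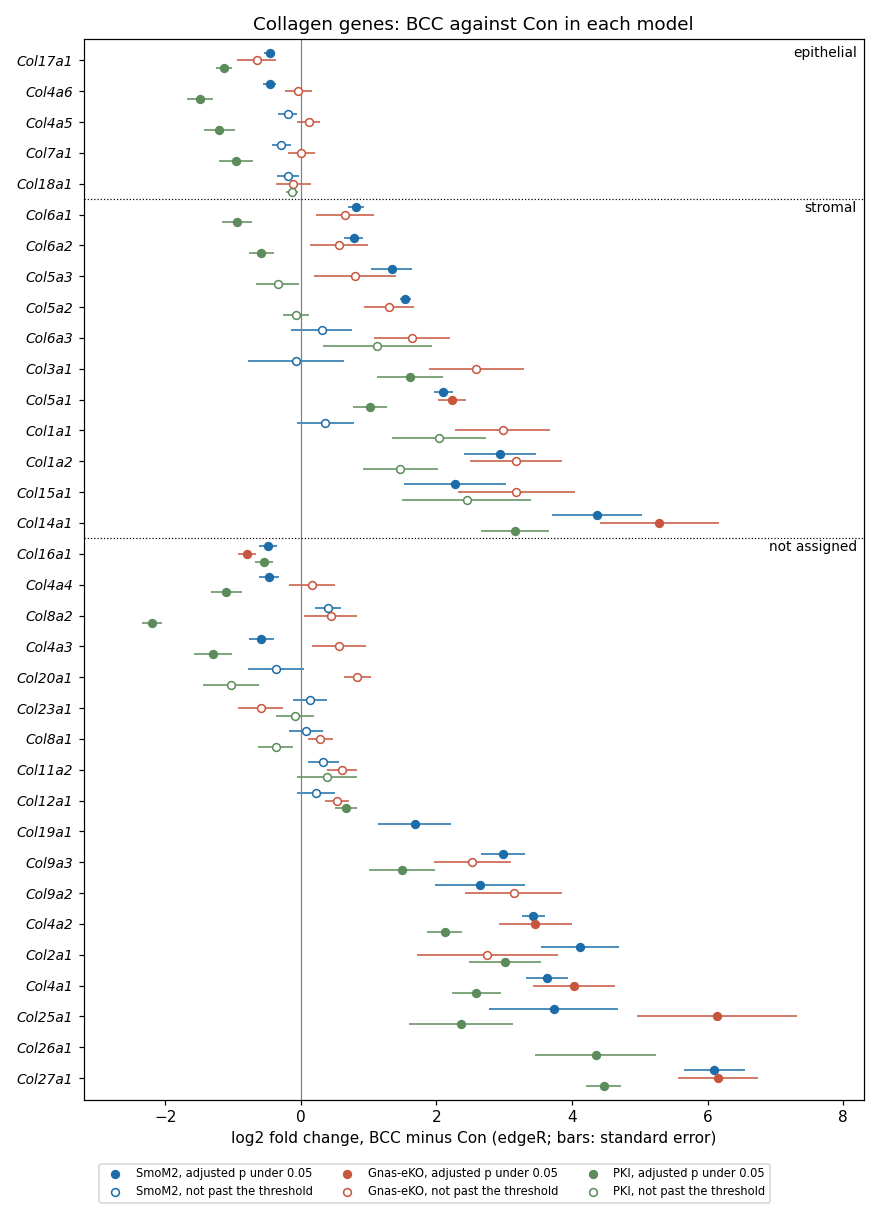
log2 fold change of BCC over Con for each tested collagen in SmoM2 (blue), Gnas-eKO (red) and PKI (green), with bars of 1 standard error; filled points have an edgeR adjusted p under 0.05. Col27a1 lies farthest to the right in all 3 models (6.10, 6.16 and 4.47), and the epithelial collagens lie at or left of 0 except Col4a5 and Col7a1 in Gnas-eKO (0.12 and 0.01).

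Col27a1 encodes the chain of a fibrillar collagen known from cartilage. In SmoM2 it stood at 1.29, 0.975 and 4 CPM in the 3 Con libraries and at 124, 160, 120 and 163 CPM in the 4 BCC libraries. In Gnas-eKO it went from 1.06, 1.01 and 1.48 CPM to 135, 39.6, 46.5 and 118 CPM. In PKI it went from 2.18, 1.58 and 2.22 CPM to 37.7, 31.9, 52.3 and 55.2 CPM. Every BCC library lay above every Con library of its model, and the rises were 68.8-fold, 71.7-fold and 22.2-fold. The log2 fold changes were 6.10 (SE 0.45, edgeR adjusted p 0.000162), 6.16 (SE 0.59, edgeR adjusted p 0.00699) and 4.47 (SE 0.26, edgeR adjusted p 4.05e-05). The Gnas-eKO call was lost when any 1 of its Con libraries was left out (edgeR adjusted p up to 0.0878), and held in every fit that left out a library of SmoM2 or PKI.

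Col5a1, a chain of type V collagen that sets the width of type I fibrils, had 7.48, 6.13 and 5.03 CPM in SmoM2 Con and 26.6, 26.4, 26.4 and 26.1 CPM in SmoM2 BCC, or 2.10 on the log2 scale (SE 0.14, edgeR adjusted p 6.05e-06). In Gnas-eKO it had 5.82, 6.64 and 4.85 CPM against 32.9, 20.6, 25.8 and 28.5 CPM (2.23, SE 0.21, edgeR adjusted p 0.00699). In PKI it had 7.49, 3.72 and 5.16 CPM against 12, 8, 10.7 and 13.4 CPM (1.02, SE 0.25, edgeR adjusted p 0.0134). All BCC libraries lay above the Con libraries in each model, and the narrow range of SmoM2 BCC, 26.1 to 26.6 CPM, stands beside a spread of 20.6 to 32.9 CPM in Gnas-eKO BCC. The PKI call did not pass without PKI Con replicate 3 (edgeR adjusted p 0.0527), and the Gnas-eKO call did not pass without any 1 of the 3 Con libraries (up to 0.0824). Col5a2, the partner chain, rose in SmoM2, from 21.8 ± 0.792 CPM to 62.7 ± 3.73 CPM (log2 fold change 1.54, edgeR adjusted p 1.48e-06), and its values in Gnas-eKO and PKI were 1.30 (edgeR adjusted p 0.114) and -0.07 (0.809). Col2a1, the main collagen of cartilage, stayed at or near the floor in Con, with 0.122 ± 0.115, 0.215 ± 0.198 and 0.16 ± 0.0981 CPM. It reached 2.18 ± 0.548 CPM in SmoM2 BCC (edgeR adjusted p 0.000626) and 1.29 ± 0.385 CPM in PKI BCC (0.00265), and 1.44 ± 0.934 CPM in Gnas-eKO BCC (0.199). Of the 9 fibrillar collagens tested, SmoM2 had 6 calls, Gnas-eKO 2 and PKI 4, all of them higher in BCC, as were 16.2% (SmoM2), 1.46% (Gnas-eKO) and 18.7% (PKI) of all genes tested. The Gnas-eKO count was 0 without any 1 Con library, 7 without BCC replicate 2, 6 with DESeq2 and 7 when all 21 libraries were fitted jointly. The PKI count was 2 without Con replicate 3 and 6 without Con replicate 1, with DESeq2 or with limma on the normalized values.

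The chains of types I and III collagen, the bulk of dermal fibrils, were scarce in these libraries. Col1a1 stood at 1.19, 1.61 and 1.89 CPM in SmoM2 Con and at 1.76, 1.3, 3.66 and 1.16 CPM in SmoM2 BCC. It had 1.62, 2.07 and 1.69 CPM against 28.9, 2.57, 12.1 and 12.2 CPM in Gnas-eKO, and 5.22, 0.568 and 1.74 CPM against 9.03, 10, 5.43 and 17.5 CPM in PKI. The groups overlapped in SmoM2, and in the other models the BCC libraries lay above the Con libraries without a call by edgeR (log2 fold changes 0.36, 2.98 and 2.04, adjusted p 0.575, 0.0748 and 0.0575). DESeq2 called Col1a1 higher in Gnas-eKO and PKI (adjusted p 6.52e-05 and 0.0259), and so did edgeR without Gnas-eKO BCC replicate 2 (0.00275) or PKI Con replicate 1 (0.0115), while the other left-out libraries gave up to 0.261 and 0.165. Col1a2, the second chain of type I collagen, had 1.19, 1.43 and 3.24 CPM in SmoM2 Con and 19.3, 22.1, 9.99 and 7.65 CPM in SmoM2 BCC, a rise of 2.94 on the log2 scale (SE 0.53, edgeR adjusted p 0.00588). In Gnas-eKO it had 1.22, 1.01 and 1.74 CPM against 25.7, 3.16, 9.41 and 9.03 CPM (3.17, edgeR adjusted p 0.0586), and in PKI 4.76, 1.14 and 1.8 CPM against 5.7, 5.57, 4.49 and 12.8 CPM (1.47, edgeR adjusted p 0.0751). In SmoM2, Col1a2 was thus called and Col1a1 was not, and the difference between the genes was not tested. DESeq2 called Col1a2 higher in Gnas-eKO and PKI too (adjusted p 9.25e-06 and 0.0105), and Col3a1 in Gnas-eKO (0.000955). Col3a1 had 0.78, 1.2 and 6.11 CPM in SmoM2 Con against 1.85, 1.88, 4.26 and 2.11 CPM in BCC (-0.07, edgeR adjusted p 0.955). It had 1.37, 1.28 and 3.83 CPM against 25.4, 3.27, 13.2 and 9.9 CPM in Gnas-eKO (2.59, edgeR adjusted p 0.0987), and in PKI it rose from 4.1, 0.884 and 2.34 CPM to 6.26, 6.04, 5.38 and 12.4 CPM (1.61, edgeR adjusted p 0.0363). The PKI call of Col3a1 was lost in 5 of 7 fits that left out a library: PKI Con replicate 2 or 3, or PKI BCC replicate 1, 2 or 4 (edgeR adjusted p up to 0.107).

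Col14a1 carried the largest change of the stromal list. It encodes a fibril-associated collagen that binds fibrils in the dermis. It had 2.16, 3.84 and 14.6 CPM in SmoM2 Con and 134, 118, 167 and 142 CPM in SmoM2 BCC. In Gnas-eKO the values were 5.88, 3.24 and 4.09 CPM against 300, 33.9, 65.2 and 286 CPM, and in PKI 10.5, 2.46 and 4.02 CPM against 62.8, 33.4, 51.9 and 56.1 CPM. No BCC library fell into the Con range, and Gnas-eKO BCC replicates 1 and 4 were the highest of all. The log2 fold changes were 4.37 (SE 0.67, edgeR adjusted p 0.00556), 5.29 (SE 0.88, edgeR adjusted p 0.0339) and 3.16 (SE 0.50, edgeR adjusted p 0.00418). In the fits that left out 1 library of Gnas-eKO, the call held only without BCC replicate 2 (edgeR adjusted p 0.00194) and was lost in the other 6 (up to 0.186). As a share of the summed CPM of the 11 stromal collagens, Col14a1 went from 6.83% ± 5.54 (SD, n = 3) to 41.3% ± 3.88 (SD, n = 4) in SmoM2, from 4.58% ± 1.35 to 38.6% ± 15.7 in Gnas-eKO and from 4.76% ± 1.98 to 33.9% ± 6.81 in PKI.

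Col16a1, another fibril-associated collagen, found near the basement membrane, fell in each model. The SmoM2 values were 144, 106 and 95.2 CPM in Con and 78.1, 77.4, 86.2 and 86 CPM in BCC. Gnas-eKO had 119, 119 and 132 CPM against 75, 81.3, 66.4 and 59.5 CPM, and PKI had 98, 92.8 and 124 CPM against 58.2, 72.8, 78.1 and 76.4 CPM. The groups did not overlap in any model, but the log2 fold changes were small, at -0.48, -0.79 and -0.54 (SE 0.13 in each; edgeR adjusted p 0.0219, 0.0315 and 0.0114). The SmoM2 call was lost without SmoM2 BCC replicate 1 or 2 (edgeR adjusted p up to 0.0642) and the Gnas-eKO call without any 1 Con library or without BCC replicate 1 or 4 (up to 0.16). Col9a2 and Col9a3, chains of type IX collagen of cartilage, rose in SmoM2 from 0.195 ± 0.208 to 1.28 ± 0.4 CPM and from 0.645 ± 0.214 to 5.05 ± 1.21 CPM (edgeR adjusted p 0.0135 and 0.000116), the Col9a2 call being lost without SmoM2 Con replicate 2 (0.0586). Col9a3 was also called in PKI, at 0.355 ± 0.132 against 0.991 ± 0.401 CPM (edgeR adjusted p 0.0408), but not when any 1 of the 3 PKI Con libraries was left out (up to 0.14) or without the filter on low counts (0.051). In Gnas-eKO, BCC lay above Con for Col9a2 and Col9a3 without a call (3.14 and 2.53, edgeR adjusted p 0.0703 and 0.0663). Both were called there without BCC replicate 2 (edgeR adjusted p 0.00919 and 0.00296). Of the exon bases of Col9a3, 234 lie opposite Tcfl5, so part of its low count is uncertain. Col12a1, which links fibrils under load, was called in PKI, at 107 ± 16.4 against 169 ± 30.9 CPM (log2 fold change 0.67, edgeR adjusted p 0.0107). Its values in SmoM2 and Gnas-eKO were 0.23 and 0.53 (edgeR adjusted p 0.593 and 0.153). In SmoM2 the value ran from 0.0033 to 0.66 when 1 library was left out. The highest, without SmoM2 Con replicate 1, was called (edgeR adjusted p 0.00252).

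**Figure D2:**
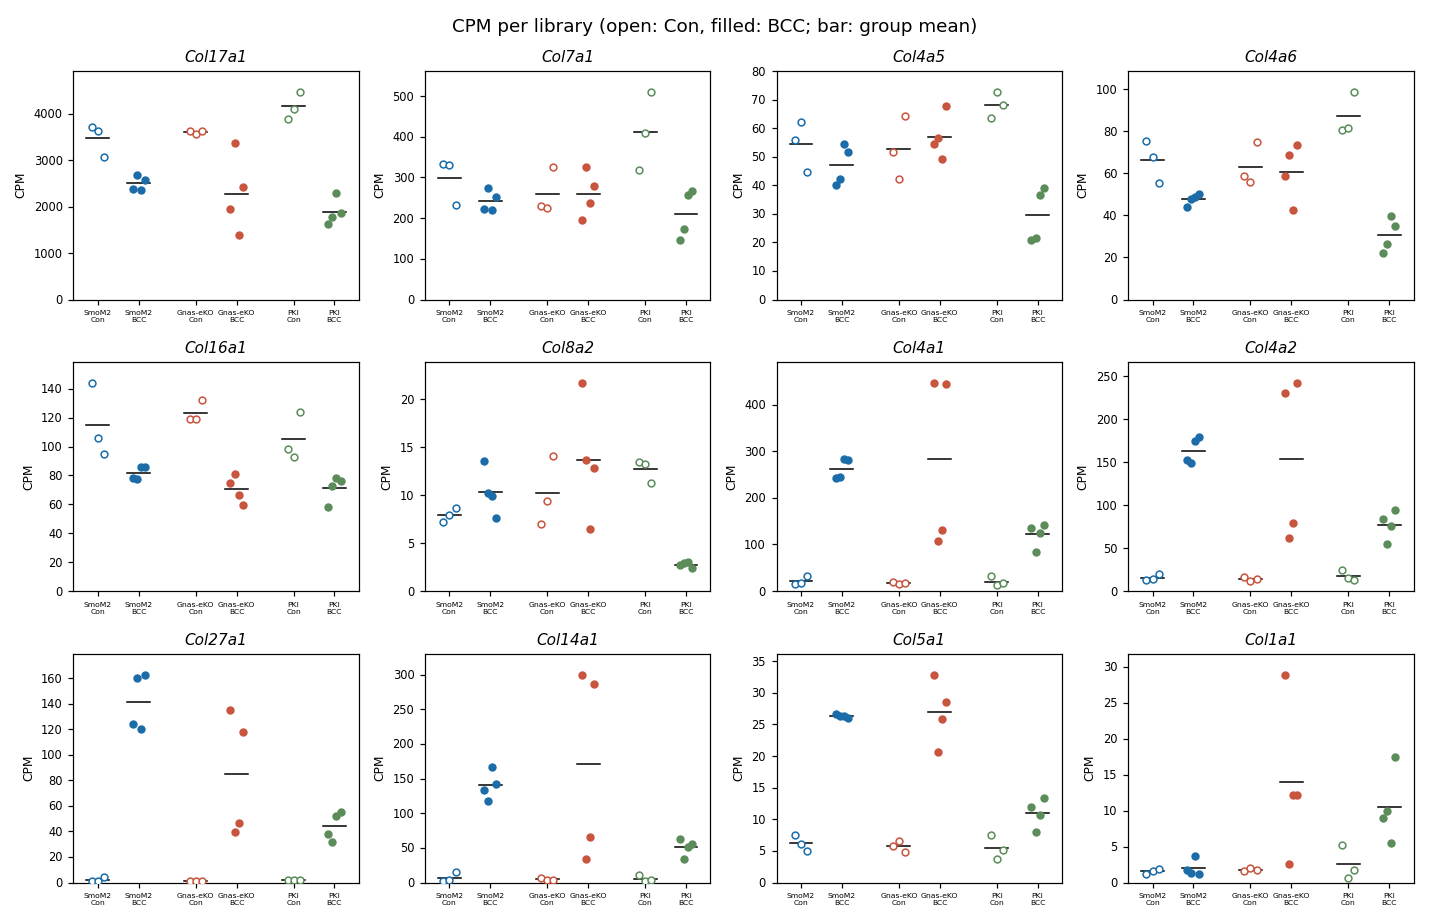
CPM of 12 collagens in every library, by model, with open circles for the 3 Con and filled circles for the 4 BCC libraries and a bar at the group mean; each panel starts at 0 and has its own scale. Col27a1, Col14a1, Col4a1 and Col4a2 lie higher in every BCC library than in any Con library of the model, while Col8a2 separates the groups in PKI (2.41 to 3.02 against 11.3 to 13.5 CPM) and not in the other models.

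Type IV collagen genes lie head to head in 3 pairs that read in opposite directions. The promoter windows printed here, which run from 250 bases before to 50 bases after a start annotated in RefSeq (GRCm38.p6), are shown because Col4a1 and Col4a2 were the pair called higher in each model while the other pairs were not. In the first 2 windows, capitals run from the annotated start of one gene to that of its partner. For Col4a1 this covers the 22 bases by which the annotated genes overlap (starts at 11312826 for Col4a1 and 11312805 for Col4a2 on chromosome 8). For Col4a4 it covers the 73 bases from its start at 82586849 to that of Col4a3 at 82586921 on chromosome 1. In the GENCODE M21 annotation the starts of Col4a5 (141475385) and Col4a6 (141474076) on the X chromosome are 1309 bases apart. A window for each is therefore shown, with the GC box (GGGCGG on either strand) in capitals. The RefSeq start of the Col4a5 window is another one and lies inside the gene as GENCODE M21 annotates it.
Col4a1, GRCm38.p6 chr8:11312777-11313076, minus strand: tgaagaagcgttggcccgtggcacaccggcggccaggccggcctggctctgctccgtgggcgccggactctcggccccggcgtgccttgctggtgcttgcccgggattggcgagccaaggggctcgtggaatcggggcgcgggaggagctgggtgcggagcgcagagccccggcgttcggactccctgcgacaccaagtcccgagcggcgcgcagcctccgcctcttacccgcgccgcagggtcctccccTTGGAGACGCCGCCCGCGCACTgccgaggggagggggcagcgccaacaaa
Col4a4, GRCm38.p6 chr1:82586800-82587099, minus strand: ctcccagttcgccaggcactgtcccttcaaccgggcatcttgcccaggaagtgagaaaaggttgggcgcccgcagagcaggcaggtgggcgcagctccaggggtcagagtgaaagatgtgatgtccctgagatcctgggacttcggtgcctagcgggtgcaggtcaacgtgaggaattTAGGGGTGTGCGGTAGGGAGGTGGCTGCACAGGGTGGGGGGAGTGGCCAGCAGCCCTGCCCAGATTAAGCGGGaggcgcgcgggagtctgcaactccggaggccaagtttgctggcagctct
Col4a5, GRCm38.p6 chrX:141475169-141475468, plus strand: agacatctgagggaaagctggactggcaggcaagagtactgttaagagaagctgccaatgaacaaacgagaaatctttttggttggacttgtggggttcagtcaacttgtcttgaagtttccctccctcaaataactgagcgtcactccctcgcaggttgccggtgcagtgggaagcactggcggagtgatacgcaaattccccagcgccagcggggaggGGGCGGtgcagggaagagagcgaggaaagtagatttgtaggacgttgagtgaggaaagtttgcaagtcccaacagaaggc
Col4a6, GRCm38.p6 chrX:141474027-141474326, minus strand: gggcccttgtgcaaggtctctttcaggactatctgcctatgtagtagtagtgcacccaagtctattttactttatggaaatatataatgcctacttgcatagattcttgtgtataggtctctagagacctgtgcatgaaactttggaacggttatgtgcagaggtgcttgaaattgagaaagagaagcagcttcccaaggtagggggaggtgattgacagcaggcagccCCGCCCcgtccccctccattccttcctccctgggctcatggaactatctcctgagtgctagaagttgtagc

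By summed CPM per kb of exon, a scale on which genes of different length can be compared, Col4a1 plus Col4a2 stood at 3.83, 4.32 and 7.43 in SmoM2 Con and at 55.3, 55.3, 64.3 and 64.7 in SmoM2 BCC. The same sum went from 5.18, 3.67 and 4.52 to 94.6, 23.7, 29.5 and 96.2 in Gnas-eKO, and from 7.95, 4 and 4.21 to 30.9, 19.4, 27.9 and 33.3 in PKI. These are the ubiquitous chains of the basement membrane, and both genes were called higher in every model. Col4a1 rose by 3.63 (SE 0.31, edgeR adjusted p 0.000261), 4.03 (SE 0.60, edgeR adjusted p 0.0262) and 2.59 (SE 0.36, edgeR adjusted p 0.00227) on the log2 scale in SmoM2, Gnas-eKO and PKI. Col4a2 rose by 3.43 (SE 0.17, edgeR adjusted p 4.69e-06), 3.46 (SE 0.54, edgeR adjusted p 0.0302) and 2.12 (SE 0.26, edgeR adjusted p 0.000974). In counts, Col4a1 had 14.7, 16.5 and 33 CPM in SmoM2 Con and 242, 244, 284 and 280 CPM in BCC. Gnas-eKO had 19.9, 14.5 and 18 CPM against 446, 107, 131 and 445 CPM, the widest spread among the BCC groups, and PKI had 31.7, 12.1 and 16.7 CPM against 136, 83.5, 124 and 142 CPM. Col4a2 had 12.3, 13.9 and 19.9 CPM against 152, 149, 174 and 179 CPM in SmoM2, with values of 16.7, 11.4 and 14 CPM against 231, 61.8, 78.7 and 242 CPM in Gnas-eKO. In PKI it had 24.5, 15.7 and 13 CPM against 83.4, 54.6, 75.2 and 94.6 CPM. Neither gene overlapped between Con and BCC in any model. Both Gnas-eKO calls were lost when any 1 Con library, BCC replicate 1 or BCC replicate 4 was left out (edgeR adjusted p up to 0.16 for Col4a1 and 0.168 for Col4a2). The 22 bases that the 2 genes share on opposite strands leave a small part of their counts uncertain, since whether counting used the strand is not given in the sources used here.

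Col4a5 plus Col4a6, chains of the epithelial basement membrane, behaved differently from Col4a1 plus Col4a2. Their summed CPM per kb was 17.8, 17.8 and 13.6 in SmoM2 Con and 11.5, 12.3, 14.2 and 14 in BCC, so the groups overlapped. It was 15, 13.3 and 19 against 15.4, 17, 12.7 and 19.4 in Gnas-eKO, again with overlap. In PKI it was 19.6, 21.1 and 22.6 against 5.85, 6.55, 10.4 and 10.2, with every BCC library under every Con library. Col4a5 fell in PKI from 63.5, 72.9 and 68.2 CPM to 20.7, 21.6, 36.7 and 39 CPM (-1.20, SE 0.23, edgeR adjusted p 0.00617), with -0.19 and 0.12 in SmoM2 and Gnas-eKO (edgeR adjusted p 0.356 and 0.748). Its other values were 56, 62.3 and 44.8 CPM in SmoM2 Con, 40.2, 42.3, 54.6 and 51.8 CPM in SmoM2 BCC, 51.7, 42.2 and 64.5 CPM in Gnas-eKO Con, and 54.4, 56.5, 49.2 and 67.9 CPM in Gnas-eKO BCC. Col4a6 fell in SmoM2 from 75.4, 67.7 and 55.4 CPM to 43.8, 47.8, 48.6 and 50.2 CPM (-0.46, SE 0.10, edgeR adjusted p 0.00827) and in PKI from 80.8, 81.6 and 98.9 CPM to 22, 26.6, 39.7 and 34.8 CPM (-1.49, SE 0.19, edgeR adjusted p 0.000952). In Gnas-eKO its 58.6, 55.8 and 75.1 CPM in Con overlapped the 58.6, 68.5, 42.5 and 73.7 CPM in BCC (-0.04, edgeR adjusted p 0.925). The SmoM2 call of Col4a6 did not pass in a joint fit of all 21 libraries (edgeR adjusted p 0.0736).

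Col4a3 plus Col4a4, chains best known from kidney, were the least abundant pair, at 1.92 ± 0.239, 1.67 ± 0.237 and 2.09 ± 0.424 CPM per kb in Con of SmoM2, Gnas-eKO and PKI. Both genes fell in SmoM2 and PKI. Col4a3 had 9.18, 10.6 and 6.81 CPM in SmoM2 Con and 5.69, 6.03, 5.04 and 6.65 CPM in BCC (-0.58, SE 0.18, edgeR adjusted p 0.0351), and 9.01, 8.46 and 12.1 CPM against 2.26, 3.51, 5.6 and 4.5 CPM in PKI (-1.30, SE 0.28, edgeR adjusted p 0.00713). Col4a4 had 12.4, 10.1 and 10.2 CPM against 8.68, 6.61, 8.56 and 7.35 CPM in SmoM2 (-0.47, SE 0.15, edgeR adjusted p 0.0385) and 9.22, 11.4 and 14.3 CPM against 4.41, 4.54, 7.52 and 5.04 CPM in PKI (-1.10, SE 0.23, edgeR adjusted p 0.00585). In Gnas-eKO both overlapped, with BCC replicate 1 highest for each, at 19.8 CPM for Col4a3 and 19 CPM for Col4a4. Both SmoM2 calls were lost in 5 of the 7 fits that left out a library (edgeR adjusted p up to 0.148 and 0.136). Those were the fits without Con replicate 1 or 2 and BCC replicate 2 for both genes, without BCC replicate 1 or 3 for Col4a3, and without Con replicate 3 or BCC replicate 4 for Col4a4. Col4a3 also shares 563 exon bases with C430014B12Rik on the opposite strand, which leaves that portion of its count uncertain, and the same holds for 113 exon bases of Col5a1 that lie opposite 2810430I11Rik and Gm13372.

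Set against each other per kb, Col4a1 plus Col4a2 made 0.335 ± 0.183 times the level of Col4a5 plus Col4a6 in SmoM2 Con and 4.61 ± 0.149 times in SmoM2 BCC. The ratio was 0.286 ± 0.054 and 3.71 ± 2.21 in Gnas-eKO, with SD over n = 3 and n = 4 in each. PKI had 0.406, 0.19 and 0.187 in Con and 5.28, 2.97, 2.67 and 3.28 in BCC. Among the 9 Con libraries the highest ratio was 0.546, and among the 12 BCC libraries the lowest was 1.39, in Gnas-eKO BCC replicate 2. Every Con library thus had more Col4a5 plus Col4a6 per kb than Col4a1 plus Col4a2, and every BCC library the reverse. Within pairs, the ratio of Col4a1 to Col4a2 per kb was 1.19 ± 0.237, 1.11 ± 0.0426 and 0.99 ± 0.265 in Con and 1.43 ± 0.029, 1.59 ± 0.103 and 1.4 ± 0.0634 in BCC.

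**Figure D3:**
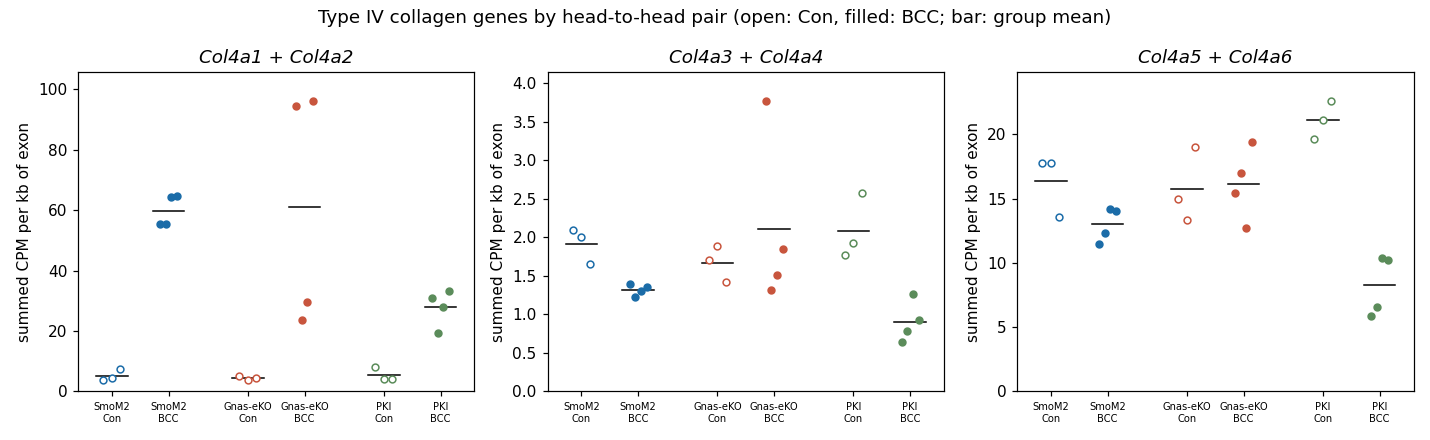
Summed CPM per kb of exon of the 3 type IV pairs in every library, with open circles for Con, filled circles for BCC and a bar at the group mean; each axis starts at 0. The Col4a1 and Col4a2 sum is higher in all 12 BCC libraries (19.4 to 96.2) than in any of the 9 Con libraries (3.67 to 7.95), whereas the Col4a5 and Col4a6 sum separates the groups in PKI and overlaps in the other models.

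Per kb of exon, Col17a1 ranked highest of the collagens over the 9 Con libraries, at 622 ± 64.6 CPM per kb (SD, n = 9), followed by Col18a1 at 50.3 ± 5.88 and Col7a1 at 31.5 ± 9.05. In SmoM2 BCC, Col4a1 lay above Col7a1 per kb, at 35.2 ± 3.03 against 23.5 ± 2.52 (SD, n = 4). The means were 37.8 ± 25.3 against 25.2 ± 5.42 in Gnas-eKO BCC, and in the reverse order in PKI BCC, at 16.3 ± 3.53 against 20.5 ± 5.8. Col17a1 made 75.3% ± 0.881, 76.9% ± 1.5 and 74.8% ± 0.784 of all collagen CPM in the Con groups (SD, n = 3) and 58.6% ± 2.04, 54.9% ± 10.3 and 59% ± 3.14 in the BCC groups (SD, n = 4). Its values were 3705, 3614 and 3074 CPM in SmoM2 Con against 2383, 2677, 2364 and 2579 CPM in BCC (-0.46, SE 0.08, edgeR adjusted p 0.00301). In PKI they were 3881, 4105 and 4472 CPM against 1619, 1783, 2283 and 1862 CPM (-1.13, SE 0.12, edgeR adjusted p 0.000269). In Gnas-eKO they were 3626, 3559 and 3630 CPM against 1948, 3356, 1391 and 2410 CPM (-0.65, SE 0.29, edgeR adjusted p 0.252). The groups did not overlap in any model, and it was Gnas-eKO BCC replicate 2 that lay near the Con range. The SmoM2 call did not pass in the joint fit of all 21 libraries (edgeR adjusted p 0.0918).

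Col7a1 fell in PKI, from 318, 408 and 511 CPM to 147, 173, 257 and 266 CPM (-0.96, SE 0.25, edgeR adjusted p 0.0211). That call did not pass without PKI Con replicate 2, PKI Con replicate 3 or PKI BCC replicate 2 (edgeR adjusted p up to 0.0687). In SmoM2 its 333, 331 and 232 CPM in Con overlapped the 223, 274, 219 and 252 CPM in BCC (-0.29, edgeR adjusted p 0.142). Without SmoM2 Con replicate 3, edgeR called it lower there. In Gnas-eKO its 230, 225 and 325 CPM overlapped the 195, 325, 237 and 279 CPM in BCC (0.01, edgeR adjusted p 0.994). Col18a1 had no call in any model (-0.19, -0.11 and -0.13, edgeR adjusted p 0.396, 0.86 and 0.298). Its levels were 378, 339 and 305 CPM against 236, 250, 351 and 341 CPM in SmoM2, 312, 315 and 337 CPM against 288, 395, 166 and 339 CPM in Gnas-eKO, and 375, 389 and 426 CPM against 324, 346, 390 and 382 CPM in PKI. The groups overlapped in each model.

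Taking the 5 epithelial collagens as a list, none was called higher anywhere, and 2 were called lower in SmoM2, 4 in PKI and 0 in Gnas-eKO, where 13.5%, 15.8% and 0.165% of all genes tested were called lower. Col4a1 and Col4a2, which keratinocytes also make, were called higher in every model. Both were left off this list, so they enter neither its counts nor the sums and means below. In Gnas-eKO 1 of the 5, Col17a1, had an unadjusted edgeR p under 0.05. DESeq2 called 0 of them there, while the joint fit of all 21 libraries and the fit without Gnas-eKO BCC replicate 2 called Col17a1 lower (edgeR adjusted p 0.0264 and 0.0485) and the other 6 fits that left out a library called none. The joint fit called 0 in SmoM2. The 5 epithelial collagens had median log2 fold changes of -0.29 (SmoM2), -1.13 (PKI) and -0.04 (Gnas-eKO). The summed level of the 7 keratinocyte markers stood beside this at 58279 ± 8402 against 39681 ± 6576 CPM in SmoM2 and 56315 ± 5857 against 35324 ± 8037 CPM in Gnas-eKO, both without overlap, and at 57265 ± 9666 against 57367 ± 12574 CPM in PKI, with overlap. In SmoM2 Krt14, Krt10, Itga6 and Krt5 were called lower (-1.20, -0.81, -0.57 and -0.31, edgeR adjusted p 3.65e-05, 0.0186, 0.00161 and 0.0239) and Trp63 higher. In PKI Krt15 and Krt5 were called lower and Krt1 higher, and in Gnas-eKO edgeR called 0 of the 7, with 2 at an unadjusted p under 0.05. The part of these shifts in the epithelial collagen results was not tested. Of the 11 stromal collagens, 8 were called higher and none lower in SmoM2, 2 higher and none lower in Gnas-eKO, and 3 higher and 2 lower in PKI, with medians of 1.34, 2.23 and 1.13. The share of all genes tested that rose was 16.2% (SmoM2), 1.46% (Gnas-eKO) and 18.7% (PKI), so the PKI counts of the stromal list in either direction were not far from the background. In Gnas-eKO the 2 became 0 without any 1 Con library, 1 without BCC replicate 1 or 4, 7 without BCC replicate 2, 8 with DESeq2 and 7 in the joint fit. In PKI the 3 became 1 without Con replicate 3, 7 without Con replicate 1, and 6 with DESeq2 or limma, and in SmoM2 the 8 became 5 in the joint fit. The genes called higher in PKI were Col14a1, Col5a1 and Col3a1, and those called lower were Col6a1 and Col6a2. Lists and members were chosen with earlier results in view, so these counts describe the lists and are no independent evidence of their direction.

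The summed CPM of the stromal list was 85.3, 78.8 and 112 in SmoM2 Con and 328, 326, 367 and 331 in SmoM2 BCC. In Gnas-eKO it was 96.4, 93.1 and 97.7 against 633, 188, 185 and 534, and in PKI 154, 86.4 and 86.9 against 153, 127, 136 and 186. The groups were apart in SmoM2 and Gnas-eKO and overlapped in PKI, where PKI Con replicate 1 was as high as BCC libraries. The largest parts of the sum in SmoM2 Con were Col6a1 and Col5a2, at 39.5 and 21.8 CPM. In SmoM2 BCC they were Col14a1, Col6a1 and Col5a2, at 140, 68.8 and 62.7 CPM. Col1a1 and Col3a1 stood at 1.97 and 2.53 CPM there. Which cells made these RNAs was not tested. The epithelial sum was 4225 ± 449 against 3132 ± 179 CPM in SmoM2, 4302 ± 119 against 2950 ± 985 CPM in Gnas-eKO, and 5117 ± 432 against 2518 ± 374 CPM in PKI (SD, n = 3 and n = 4). Genes of the stromal list made up 2.04% ± 0.61 of the collagen counts in SmoM2 Con and 7.93% ± 0.634 in SmoM2 BCC, 2.04% ± 0.0265 and 9.22% ± 4.67 in Gnas-eKO. The PKI libraries had 2.95%, 1.59% and 1.45% in Con and 5.5%, 4.38%, 3.67% and 5.48% in BCC. As the mean log2 CPM of the stromal list minus that of the epithelial list, BCC exceeded Con by 1.86 (SmoM2), 2.13 (Gnas-eKO) and 2.10 (PKI), values that carry no test. In PKI the epithelial mean went from 8.37 ± 0.15 in Con to 7.36 ± 0.315 in BCC and the stromal mean from 1.8 ± 0.817 to 2.89 ± 0.331. In SmoM2 the epithelial mean went from 8.03 ± 0.203 to 7.7 ± 0.117 and the stromal mean from 1.65 ± 0.444 to 3.18 ± 0.202.

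**Figure D4:**
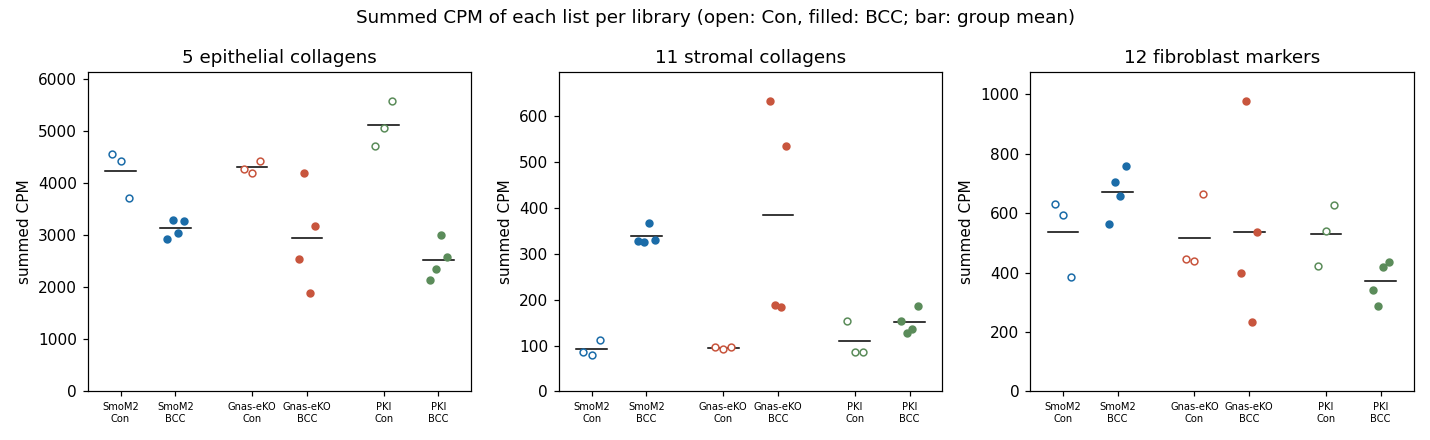
Summed CPM of the 5 epithelial collagens, the 11 stromal collagens and 12 fibroblast markers in every library, with open circles for Con, filled circles for BCC and a bar at the group mean; each axis starts at 0. The stromal sum is apart in SmoM2 (78.8 to 112 against 326 to 367) and overlaps in PKI, and the fibroblast marker sum, most of which is Sparc in Con, overlaps between Con and BCC in all 3 models.

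Markers of other cells that an epidermal preparation can hold were read beside these lists. Of 12 fibroblast markers, 4 were called higher and 2 lower in SmoM2, 2 higher and none lower in Gnas-eKO, and 3 higher and 1 lower in PKI, beside 16.2% and 13.5%, 1.46% and 0.165%, and 18.7% and 15.8% of all genes called higher and lower. Their summed level was 536 ± 133 against 671 ± 82.8 CPM in SmoM2, 516 ± 129 against 535 ± 319 CPM in Gnas-eKO and 529 ± 103 against 371 ± 68.5 CPM in PKI. In Con most of this sum was Sparc, a secreted matrix glycoprotein, at 367 ± 123, 341 ± 118 and 452 ± 117 CPM against 100 ± 29.7, 166 ± 77.7 and 181 ± 52 CPM in BCC (called lower in SmoM2 and PKI, edgeR adjusted p 0.00706 and 0.00755; 0.187 in Gnas-eKO). Thy1 also fell in SmoM2, from 121 ± 15.5 to 50.9 ± 6.58 CPM (edgeR adjusted p 6.77e-05). Dcn, which encodes the collagen-binding proteoglycan decorin, went the other way, with Con at 20.9 ± 7.94, 14.8 ± 4.13 and 18.5 ± 8.43 CPM and BCC at 439 ± 70.5, 247 ± 230 and 88.3 ± 26 CPM (log2 fold changes 4.40, 4.07 and 2.26, edgeR adjusted p 0.000108, 0.0485 and 0.00332). In SmoM2 and PKI the sum thus joins genes called in opposite directions. The other markers called higher were Fbln1 in SmoM2 and PKI, Fbln2 in SmoM2 and Gnas-eKO (2.16 and 2.58, edgeR adjusted p 0.00513 and 0.0384), Pdgfrb in SmoM2 (2.83, edgeR adjusted p 0.00533) and Lum in PKI (3.31, edgeR adjusted p 0.00684). Among the scarce markers, the fibroblast-defining Pdgfra stood at no more than 1.2 CPM in SmoM2 and Gnas-eKO and at 0.411 ± 0.376 and 0.408 ± 0.232 CPM in Con and BCC of PKI. Mfap5 and Clec3b, also fibroblast genes, stayed under 1 CPM in all 21 libraries. The 7 endothelial markers summed to 1.52 ± 0.656, 2.74 ± 1.26 and 2.71 ± 1.87 CPM in Con and to 5.05 ± 0.796, 6.45 ± 2.12 and 5.24 ± 0.937 CPM in BCC, 5 of them never reaching 1 CPM. Of the 2 endothelial markers tested, Egfl7 was called higher in every model (3.34, 2.49 and 2.50, edgeR adjusted p 0.000156, 0.041 and 0.00848), as 0.902% of all genes were. Of 7 leukocyte markers, 5 were called higher in PKI (18.7% of all genes), with a sum of 23.2 ± 3.27 against 62.6 ± 12.2 CPM, and had 24.3 ± 4.16 against 19.7 ± 2.27 CPM in SmoM2 and 29 ± 4.49 against 27.5 ± 8.43 CPM in Gnas-eKO. In SmoM2 Cd68 was called higher and Itgam lower (1.32 and -1.56, edgeR adjusted p 0.00703 and 0.0012), and in Gnas-eKO edgeR called 0 of 6 tested, with 3 at an unadjusted p under 0.05. The sum of the pericyte and smooth muscle markers was 101 ± 13.5 against 187 ± 6.06 CPM in SmoM2, 93.9 ± 11.5 against 175 ± 44.1 CPM in Gnas-eKO and 108 ± 2.52 against 82.9 ± 9.48 CPM in PKI, with no overlap in any model. Nearly all of it was Cspg4, called higher in SmoM2 and lower in PKI (0.93 and -0.44, edgeR adjusted p 7.52e-05 and 0.00726), while Rgs5 and Myh11 averaged under 1 CPM in each group. Acta2, smooth muscle actin, rose in PKI from 0.23 ± 0.241 to 3.51 ± 1.29 CPM (edgeR adjusted p 0.0012). The melanocyte and Schwann cell markers summed to 161 ± 26.6 CPM in PKI Con and 93.9 ± 18.3 CPM in PKI BCC without overlap, with 3 of the 6 tested, Dct, Pmel and Tyrp1, called lower (edgeR adjusted p 0.00627, 0.0036 and 0.0208). That sum overlapped between Con and BCC in SmoM2 and Gnas-eKO. The part of these cells in the collagen results was not tested.

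The effects of the models were then compared by an interaction contrast, the BCC effect of one model minus that of another, which asks whether the tumours differ in their collagen RNA beyond their own controls. Between PKI and SmoM2, 12 of 34 collagens tested differed, all with a lower effect in PKI, where 24.9% of all genes differed and 12.3% were lower. Between PKI and Gnas-eKO, 6 of 33 differed, all lower in PKI, where 9.06% of all genes differed and 4.57% were lower. Between Gnas-eKO and SmoM2 edgeR called 0 of 33, and so did DESeq2, with 4 at an unadjusted p under 0.05. Of all genes tested there, 0.175% differed (0.0758% upward and 0.0991% downward in Gnas-eKO relative to SmoM2). Each model is 1 batch and 1 day, so these cannot be told apart from the model here.

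Col8a2, a chain of the hexagonal network of type VIII collagen, had the largest difference among the 4 collagens called in both contrasts of PKI. It had 13.5, 13.3 and 11.3 CPM in PKI Con and 2.72, 2.89, 3.02 and 2.41 CPM in PKI BCC (-2.19, SE 0.15, edgeR adjusted p 5.85e-05). In SmoM2 it had 7.16, 7.91 and 8.7 CPM against 13.6, 10.2, 9.9 and 7.6 CPM (0.40, edgeR adjusted p 0.153), and in Gnas-eKO 6.99, 9.44 and 14.1 CPM against 21.7, 13.7, 6.52 and 12.8 CPM (0.44, edgeR adjusted p 0.588). The groups were separate in PKI and overlapped in the other models. The difference was -2.59 (SE 0.25, edgeR adjusted p 1.40e-05) against SmoM2 and -2.62 (SE 0.45, edgeR adjusted p 0.00484) against Gnas-eKO. Its partner Col8a1 had no call in any model in the main fit, with -0.37 in PKI (edgeR adjusted p 0.299). With the replicate number as a block, edgeR called Col8a1 lower in PKI (adjusted p 0.0145).

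Type VI collagen, the beaded filament of the pericellular matrix, had opposite calls. Col6a1 had 38.3, 32.6 and 47.6 CPM in SmoM2 Con and 65.6, 67.8, 71.6 and 70 CPM in BCC (0.81, SE 0.12, edgeR adjusted p 0.000689). In PKI it had 71.1, 42.7 and 34.6 CPM against 26.5, 28.6, 23.7 and 23.3 CPM (-0.94, SE 0.22, edgeR adjusted p 0.0131), and in Gnas-eKO 47.4, 43 and 39.9 CPM against 98.2, 69.7, 20.7 and 82.2 CPM (0.65, edgeR adjusted p 0.446). The groups were separate in SmoM2 and PKI, in opposite order. Col6a2 rose in SmoM2 (0.78, edgeR adjusted p 0.00294) and fell in PKI (-0.58, edgeR adjusted p 0.0426), and Col6a3, the longest chain of the filament, was called in neither (0.31 and 1.13, edgeR adjusted p 0.656 and 0.315). Without PKI Con replicate 1, edgeR called Col6a3 higher in PKI. The differences PKI minus SmoM2 were -1.76 for Col6a1 and -1.37 for Col6a2 (edgeR adjusted p 0.000682 and 0.00148). These were the 2 collagens called in opposite directions in SmoM2 and PKI, as 2.3% of genes tested in both were, and 13 were called in the same direction, as 10.7% of genes were. The Col6a2 fall in PKI was lost without PKI Con replicate 1 or 3 or PKI BCC replicate 1, 2 or 3 (edgeR adjusted p up to 0.186). Both SmoM2 calls were lost in the joint fit of all 21 libraries (edgeR adjusted p 0.101 and 0.0914).

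For the genes called higher in both SmoM2 and PKI, the rise was smaller in PKI for Col4a2 (difference -1.30, SE 0.33, edgeR adjusted p 0.0122), Col5a1 (-1.08, SE 0.30, edgeR adjusted p 0.0165) and Col27a1 (-1.63, SE 0.55, edgeR adjusted p 0.0479). The Col27a1 difference was lost in 11 of the 14 fits that left out a library, the exceptions being SmoM2 Con replicate 3 and PKI BCC replicates 3 and 4 (edgeR adjusted p up to 0.119). The Col5a1 difference was lost without PKI Con replicate 1 (0.0591). For Col4a1, Col14a1, Col2a1, Col25a1 and Col9a3, also called higher in both, no difference was called between these models. Among epithelial collagens, the effect was lower in PKI than in SmoM2 for Col17a1 (difference -0.67, SE 0.15, edgeR adjusted p 0.00525), Col4a5 (-1.01, SE 0.30, edgeR adjusted p 0.0262) and Col4a6 (-1.03, SE 0.23, edgeR adjusted p 0.00661). Col5a2 and Col5a3, chains of type V collagen, were called higher in SmoM2 and not called in PKI, with differences of -1.60 and -1.68 (edgeR adjusted p 0.000165 and 0.0114). Against Gnas-eKO, the differences were -1.32 for Col4a5, -1.44 for Col4a6, -1.86 for Col4a3, -1.21 for Col5a1 and -1.86 for Col20a1, a fibril-associated chain (edgeR adjusted p 0.0167, 0.0101, 0.0425, 0.0376 and 0.026). edgeR called Col20a1 itself in no model (adjusted p 0.0748 in Gnas-eKO and 0.0785 in PKI) but did without Gnas-eKO BCC replicate 2 (0.0462) or PKI BCC replicate 4 (0.012), and DESeq2 called Col20a1 in Gnas-eKO (adjusted p 0.00395) and Col20a1 in PKI (0.0496). It had 5.01, 5.08 and 4.6 CPM in Gnas-eKO Con below 6.78, 8.73, 9.14 and 10 CPM in Gnas-eKO BCC, and 3.34, 2.84 and 5.34 CPM in PKI Con against 1.8, 1.29, 1.07 and 3.34 CPM in PKI BCC. The Col4a5 difference against SmoM2 was lost without SmoM2 Con replicate 3 or PKI Con replicate 2 or 3 (edgeR adjusted p up to 0.0669) and that against Gnas-eKO without Gnas-eKO Con replicate 2 (0.055). The Col4a3, Col5a1 and Col20a1 differences against Gnas-eKO were each lost in 5 to 10 of the 14 fits that left out a library, Gnas-eKO Con replicates 1, 2 and 3 among them (edgeR adjusted p up to 0.11, 0.113 and 0.0813).

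**Figure D5:**
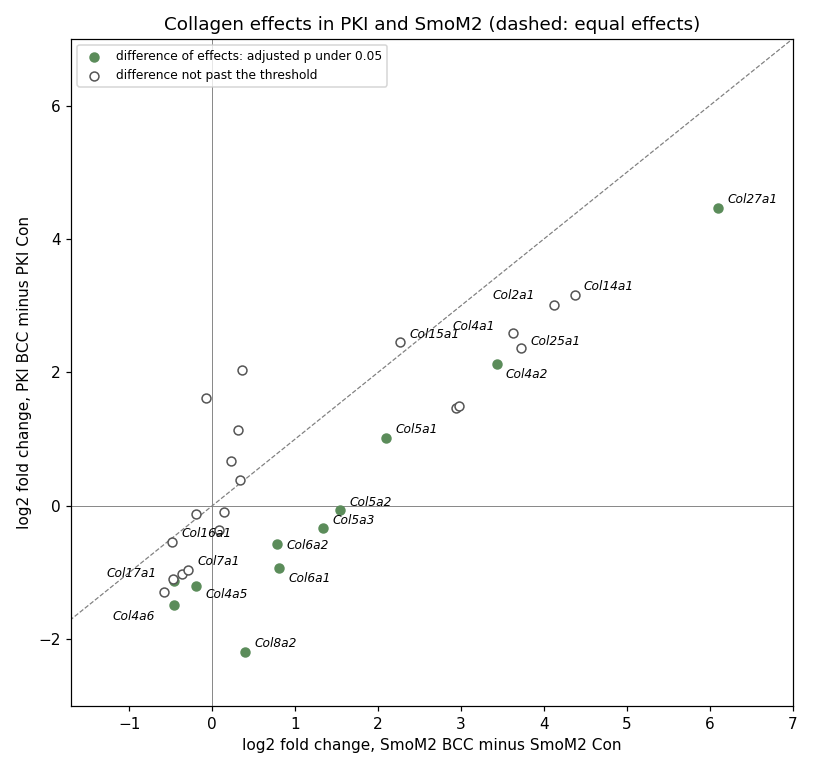
log2 fold change of each collagen in PKI (vertical axis) against that in SmoM2 (horizontal axis), for the collagens tested in both models (Col19a1 was not tested in PKI and is not drawn); filled points have an interaction adjusted p under 0.05 and the dashed line marks equal effects. All filled points lie under the line, from Col8a2 (0.40 in SmoM2, -2.19 in PKI) to Col27a1 (6.10 and 4.47).

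The Col27a1 promoter window is shown because the gene had the largest rise, with its GC boxes in capitals. It surrounds a RefSeq start at GRCm38.p6 chr4:63215162-63215461 on the plus strand, inside the annotated gene, which GENCODE M21 begins at 63214004.
Col27a1: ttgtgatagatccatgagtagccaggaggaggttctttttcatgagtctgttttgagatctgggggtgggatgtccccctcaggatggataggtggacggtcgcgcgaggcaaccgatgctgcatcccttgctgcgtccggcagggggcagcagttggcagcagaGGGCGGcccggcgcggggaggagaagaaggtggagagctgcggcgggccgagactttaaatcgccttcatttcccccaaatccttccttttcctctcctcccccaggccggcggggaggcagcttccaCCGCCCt
The GLI motif GACCACCCA, the site of the Hedgehog effectors, was found on either strand in 0.253% of 32851 windows of all genes and in none of the 33 windows that matched 31 collagens, which says only that these letters are not in these windows. The GC box GGGCGG was in 21 of the 33, beside 35.7% of all windows. TATAAA was in 4 (those of Col3a1, Col11a2, Col13a1 and Col17a1) beside 13.6%, the AP-1 motif TGANTCA in that of Col6a1 beside 7.81%, and the CRE motif TGACGTCA, the site of the cAMP-responsive factor CREB, in that of Col24a1 beside 1.79%. Among scarce members, Col25a1, a transmembrane collagen of brain, was at or under the floor in most Con libraries (at most 0.216 CPM). It reached 0.813, 0.338, 1.71 and 1.11 CPM in SmoM2 BCC, 4.43, 0.375, 7.54 and 3.96 CPM in Gnas-eKO BCC and 0.975, 0.722, 0.133 and 0.658 CPM in PKI BCC (edgeR adjusted p 0.0153, 0.0475 and 0.0398). In PKI its groups overlapped. The call was lost without any 1 Con library in Gnas-eKO (edgeR adjusted p up to 0.212) and in PKI (up to 0.129), and in SmoM2 without Con replicate 2 (0.0583). Col19a1 had 0.0459, 0.287 and 0.27 CPM in SmoM2 Con and 0.633, 0.772, 0.555 and 0.554 CPM in BCC (edgeR adjusted p 0.0425), a call lost in each fit that left out 1 library (up to 0.128), and in PKI it did not pass the filter on low counts. Col26a1 passed that filter in PKI alone. It was called higher there, at 0.0421 ± 0.0729 against 0.914 ± 0.489 CPM (4.35, edgeR adjusted p 0.00534), with Con under the floor.

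The enzymes, chaperones, receptors and proteases that make, bind or clear collagen were read from a list of 50 genes, of which 48 were in the table and 2, Tll2 and Mmp8, were not analysed here. In SmoM2 13 of 40 tested were called higher and 8 lower, in Gnas-eKO 3 of 41 higher and none lower, and in PKI 7 of 40 higher and 9 lower. Of all genes tested, 29.7%, 1.63% and 34.5% were called in either direction in these models, which leaves the 16 of 40 in PKI near the background. The median log2 fold changes were 0.16, 0.27 and -0.07. Itga1, a collagen-binding integrin chain, rose in all 3 models. Its values were 0.735, 0.745 and 2.11 CPM against 33.8, 50.6, 38.3 and 33.1 CPM in SmoM2, 1.27, 1.73 and 1.69 CPM against 15.5, 10.6, 18.6 and 25.2 CPM in Gnas-eKO, and 1.47, 1.51 and 1.2 CPM against 3.8, 3.71, 4.18 and 8.11 CPM in PKI. The log2 fold changes were 5.05, 3.49 and 1.83 (edgeR adjusted p 5.90e-05, 0.00699 and 0.00339), with no overlap of the groups. Bmp1, the protease that removes procollagen C-propeptides, also rose in all 3, by 1.27, 0.93 and 0.59 on the log2 scale (edgeR adjusted p 8.41e-06, 0.0339 and 0.00454). In Gnas-eKO no machinery gene, these included, was called when any 1 of the 3 Con libraries was left out, and 1 was called without BCC replicate 1 or 4.

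Other machinery was called in part of the models, and differences between models were not examined for these genes. Among hydroxylases, Plod1 rose 9.26-fold in SmoM2, from 8.66 ± 1.51 to 79.7 ± 17.1 CPM (edgeR adjusted p 1.78e-05), and Plod2 rose in SmoM2 and PKI by 2.43 and 3.47 on the log2 scale (edgeR adjusted p 0.000636 and 0.00197). P3h3 rose in SmoM2 and Gnas-eKO by 1.34 and 1.23 (edgeR adjusted p 0.000369 and 0.0389). P4ha3, a subunit of prolyl 4-hydroxylase, had 0.0506, 0 and 0 CPM in PKI Con, under the floor, and 26.3, 13.4, 14.8 and 10.6 CPM in PKI BCC (edgeR adjusted p 8.81e-05). Of the collagenases and gelatinases, Mmp9 and Mmp13 rose in PKI, to 14.5 ± 8.25 and 13.4 ± 2.53 CPM from 1 ± 1.15 and 1.49 ± 1.6 CPM (edgeR adjusted p 0.00998 and 0.00791). On the other side, Ddr2, a receptor tyrosine kinase for fibrillar collagen, fell in SmoM2 by 3.23 (edgeR adjusted p 0.000409). Adamts14, an N-propeptide protease, fell in SmoM2 and PKI by 2.37 and 1.90 (edgeR adjusted p 9.27e-05 and 0.0268). Mrc2, an uptake receptor for collagen, fell in SmoM2 and PKI by 1.53 and 0.81 (edgeR adjusted p 7.86e-06 and 0.00136). In PKI, Tll1, a relative of Bmp1, and Fkbp14, a chaperone of the endoplasmic reticulum, fell by 1.22 and 1.20 (edgeR adjusted p 0.00249 and 0.0121), while Tll1 rose in SmoM2 by 0.64 (edgeR adjusted p 0.0352). Some genes without a call in Gnas-eKO had large values there: 2.37 for Plod2, 3.44 for Mmp9 and -1.71 for Mrc2 (edgeR adjusted p 0.176, 0.073 and 0.138). Tll1 and Fkbp14 had -0.07 and -0.15 in that model.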

How the data were processed

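Poly(A) RNA of 21 libraries was prepared with a stranded kit, per the labels' protocols. Reads were handled with bcl2fastq 2.20, cutadapt 1.18, STAR 2.7.0f and Partek on mm10, per the submitters' processing notes, and whether counting used the strand is not given in the sources used here. The authors deposited estimated counts per gene, which were rounded to whole numbers, and a table of TMM-normalized signal values, used in an alternative as log2(value + 1). Exon lengths and positions came from GENCODE M21 (GRCm38), which matched all 39 collagens.

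Each model was fitted on its 7 libraries with edgeR 4.0.16 (R 4.3.3; TMM, filterByExpr, robust quasi-likelihood test), and interaction contrasts on 14 libraries, with Benjamini-Hochberg adjustment over all genes tested. The printed CPM use 1 TMM scaling over all 21 libraries, and mean log2 CPM use a prior count of 2. The fit was tested on simulated data with 200 changed genes. Alternatives were DESeq2 1.42.0, its size factors, no filter, the replicate number as a block, a joint fit of all libraries, the normalized values with limma 3.58.1, and leaving out each library in turn; for the list difference, a prior count of 0.5, the median, the ratio of sums and leaving out the most abundant gene of each list. The count of collagens called in all 3 models, and the counts per list under these alternatives, were added after seeing the data. No 2 libraries of the same group agreed within sampling noise, and pairs across groups were not compared.

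The members and lists were chosen with earlier results of these data known. Named with library values were Col1a1, Col1a2 and Col3a1, the epithelial list, the type IV pairs, the 4 highest and 4 lowest called collagens of each model whose mean log2 CPM reached 0 or more, and the 3 highest and 3 lowest interaction calls. Machinery genes were named as the 3 highest and 3 lowest called per model. Col2a1, Col5a2, Col5a3, Col6a2, Col6a3, Col8a1, Col9a2, Col9a3, Col12a1, Col26a1, Mmp13, Gli1 and the marker genes were added after their values were seen.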

Additional observations from a re-analysis of the deposited data

Results flagged for a closer look

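In groups of 4 BCC libraries, 8 of 97 collagen groups held 1 library whose gap to the nearest other exceeded Dixon's critical share of the range for 4 values, and chance gives about 1 in 20. PKI BCC replicate 4 was the high library for 5 of them. It had 12.8 CPM of Col1a2 (others 4.49 to 5.7), 12.4 CPM of Col3a1 (5.38 to 6.26), 5.37 CPM of Col6a3 (1.25 to 1.54), 8.39 CPM of Col6a2 (6.91 to 7.08) and 1.64 CPM of Col26a1 (0.623 to 0.718). SmoM2 BCC replicate 3 was high for Col3a1, at 4.26 CPM (1.85 to 2.11), and for Col15a1, at 1.34 CPM (0.655 to 0.772). Gnas-eKO BCC replicate 2 was low for Col9a3, at 1.29 CPM (5.17 to 5.83).

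The BCC effect differed between PKI and SmoM2, by edgeR's interaction test, for 12 collagens. The log2 differences were -2.59 for Col8a2, -1.76 for Col6a1, -1.68 for Col5a3, -1.63 for Col27a1, -1.60 for Col5a2, -1.37 for Col6a2, -1.30 for Col4a2, -1.08 for Col5a1, -1.03 for Col4a6, -1.01 for Col4a5 and -0.67 for Col17a1. For Col19a1 the fitted difference was -4.77, a value that depends on the prior count, since 3 of the 4 PKI BCC libraries had no count. Between PKI and Gnas-eKO it differed for 6 collagens, by -2.62 for Col8a2, -1.86 for Col20a1, -1.86 for Col4a3, -1.44 for Col4a6, -1.32 for Col4a5 and -1.21 for Col5a1.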

How the results depend on the processing

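Depth limits genes near 3 counts, and the Gnas-eKO counts changed with the setting and with the library left out. The collagens called numbered 13 in SmoM2 under the joint fit, and in Gnas-eKO 4 without the filter, 16 under DESeq2 and 16 under the joint fit. DESeq2 gave 12 differences between PKI and Gnas-eKO. Machinery calls in Gnas-eKO were 11 under DESeq2, 14 under the joint fit and 1 under the block. Without the filter 3 collagens were called higher in all 3 models. The stromal minus epithelial difference in SmoM2 was 2.77 with medians. The cause of these shifts was not tested.

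Leaving out 1 library gave 15 to 20 collagens called in SmoM2, 0 to 18 in Gnas-eKO and 15 to 22 in PKI. Differences numbered 11 to 14 for PKI minus SmoM2, 2 to 11 for PKI minus Gnas-eKO and 0 throughout for Gnas-eKO minus SmoM2. Machinery calls were 19 to 22, 0 to 12 and 14 to 18, collagens higher in all 3 models 0 to 8 and lower in all 3 models 0 to 2. The list difference ranged over 1.63 to 2.23, 1.76 to 2.54 and 1.76 to 2.63.

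Same-numbered Con and BCC libraries share only a number: the correlations of their deviations were -0.09, -0.13 and -0.13 in SmoM2, 0.04, 0.18 and 0.10 in Gnas-eKO, and for PKI 0.28, -0.07 and 0.19. Of 3 Con libraries per model, 0, 1 and 2 correlated best with their own number. With the replicate block, 16, 6 and 24 collagens were called, 12, 5 and 0 differences, and 17, 1 and 19 machinery genes, with 6 collagens higher and 0 lower in all 3 models. Calls that did not pass with the block were Col15a1, Col16a1, Col19a1 and Col9a2 in SmoM2 (edgeR adjusted p 0.0595, 0.0744, 0.107 and 0.0622), Col4a4 in SmoM2 (0.0979), Col16a1 in Gnas-eKO (0.108) and Col9a3 in PKI (0.116). Calls gained with the block were Col8a1, Col15a1 and Col20a1 in PKI (edgeR adjusted p 0.0145, 0.0177 and 0.0122) and Col1a2 in PKI. The differences that did not pass were Col27a1 for PKI minus SmoM2 (0.112) and Col8a2 and Col4a3 for PKI minus Gnas-eKO (0.0641 and 0.07). The list differences under the block were 1.98, 2.07 and 2.03.

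The sign changed for these uncalled values. In SmoM2, Col3a1 was 0.37 under the block, 0.18 with limma and -0.53 to 1.37 when 1 library was left out. Col8a1 was -0.02 under the block and -0.06 to 0.36, Col1a1 -0.12 to 0.54 and Col23a1 -0.06 to 0.30 when 1 library was left out. Col7a1 in Gnas-eKO was -0.0048 without the filter, -0.04 under the block, -0.01 with limma, -0.0046 in the joint fit and -0.12 to 0.19 when 1 library was left out. In that model Col18a1 ranged from -0.27 to 0.10, Col4a4 from -0.22 to 0.32, Col4a5 from -0.02 to 0.29 and Col4a6 from -0.15 to 0.10. In PKI, Col23a1 ranged from -0.33 to 0.32 and Col5a2 from -0.23 to 0.05.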
